A study of Mus musculus with 8 samples.

Results

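The genes for the E-proteins (Tcf3, Tcf4 and Tcf12) and for the Id proteins (Id1, Id2, Id3 and Id4) were examined as loci of myogenin and p300, 7 of the 22367 protein-coding genes of the annotation. Every called interval within 50 kb of one of these gene bodies was taken, which gave 100 of the 43759 intervals in the lists. The rule uses gene names and positions and no measured value, but the genes were chosen with earlier results of these data known. ChIP-seq, in which DNA fragments bound by a protein are recovered with an antibody and sequenced, had been run for myogenin and for p300 in C2C12 cells, a mouse myoblast line derived from a C3H muscle. Both groups were cultured for 24 h in low-serum differentiation medium. The control group (Ctl) received no bexarotene and the treated group (Bex) received 50 nM of this agonist of the retinoid X receptor (RXR). Each factor had 1 library in each condition, and the lists give positions only, with no tag counts or scores. The depth behind a call is therefore not known from the lists, a gene with no interval is one with no call rather than one without the protein, and no test between conditions could be made.

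Myogenin is a basic helix-loop-helix (bHLH) factor that binds DNA as a dimer with an E-protein, at the E-box, and it drives terminal differentiation of myoblasts. Id proteins have the helix-loop-helix but no basic region, so they pair with E-proteins without binding DNA, and they are known for holding myoblasts back from differentiation. The genes are thus the partners of myogenin and the inhibitors of that partnership, and the Id genes are well known targets of BMP and Smad signaling. p300 is a histone acetyltransferase and coactivator that marks active enhancers and promoters. The comparison asks where calls of both factors lay around these genes, and which were made in 1 condition or in both. Neither list measures expression, and none is reported here.

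The sequences that carry the findings came from the mm9 genome, are written 5′ to 3′ on its plus strand, and have each E-box (the site CAGCTG, or else CACCTG with its reverse complement CAGGTG) in capitals. The first belongs to a locus called in every list, in intron 13 of Tcf12 (chr9:71722579-71722878). It shows how densely E-boxes lie in the stretch that all lists have in common there.
Tcf12 intron 13, all lists: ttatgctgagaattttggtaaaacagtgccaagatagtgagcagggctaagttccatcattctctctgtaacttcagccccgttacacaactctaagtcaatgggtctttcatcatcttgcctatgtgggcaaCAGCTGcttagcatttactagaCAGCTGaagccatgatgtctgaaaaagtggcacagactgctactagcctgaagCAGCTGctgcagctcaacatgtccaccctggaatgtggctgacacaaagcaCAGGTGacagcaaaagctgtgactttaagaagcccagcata

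The next set shows loci whose call differed between conditions: Tcf12 intron 5 (chr9:71839122-71839275), where p300 was called only with bexarotene, the locus 21.6 kb downstream of Id3 (chr4:135720948-135721115) and that upstream of Tcf3 (chr10:79907005-79907304), where myogenin was called only with bexarotene, and the Id1 upstream locus (chr2:152560934-152561101), also a myogenin call made only with bexarotene. The Tcf3 locus holds 3 E-boxes in a short stretch and the other loci hold 1 or 2. Apart from that of Tcf3, the intervals called only with bexarotene here have the smallest length of their lists.
Tcf12 intron 5: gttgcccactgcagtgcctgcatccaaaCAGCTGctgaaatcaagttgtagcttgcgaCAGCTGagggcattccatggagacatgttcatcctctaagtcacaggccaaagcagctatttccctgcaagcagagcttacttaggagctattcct
Id3 intergenic: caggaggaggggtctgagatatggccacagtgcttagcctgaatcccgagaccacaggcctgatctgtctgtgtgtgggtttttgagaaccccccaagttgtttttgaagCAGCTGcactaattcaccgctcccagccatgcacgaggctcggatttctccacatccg
Tcf3 upstream: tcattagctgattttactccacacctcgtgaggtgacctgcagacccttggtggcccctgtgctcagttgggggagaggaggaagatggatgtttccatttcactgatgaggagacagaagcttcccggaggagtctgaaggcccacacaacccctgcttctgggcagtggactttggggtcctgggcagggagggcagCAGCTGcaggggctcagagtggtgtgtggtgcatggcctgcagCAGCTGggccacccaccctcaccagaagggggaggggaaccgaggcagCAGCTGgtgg
Id1 upstream: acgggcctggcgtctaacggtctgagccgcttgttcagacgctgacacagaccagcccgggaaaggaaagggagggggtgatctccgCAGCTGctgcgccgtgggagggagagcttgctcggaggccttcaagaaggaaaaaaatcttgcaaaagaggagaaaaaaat

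The last set shows the Tcf3 promoter stretch that was common to the control myogenin and p300 calls (chr10:79896501-79896639) and holds no E-box, the p300 locus upstream of Id2 (chr12:25783597-25783710) called in both conditions, and the only interval near Id4 (chr13:48323191-48323348).
Tcf3 promoter: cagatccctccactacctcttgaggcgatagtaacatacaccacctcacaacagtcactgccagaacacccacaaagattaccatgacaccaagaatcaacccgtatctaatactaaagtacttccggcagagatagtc
Id2 upstream: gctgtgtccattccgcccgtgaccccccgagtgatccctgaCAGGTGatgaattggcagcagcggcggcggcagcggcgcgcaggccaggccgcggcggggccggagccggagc
Id4 upstream: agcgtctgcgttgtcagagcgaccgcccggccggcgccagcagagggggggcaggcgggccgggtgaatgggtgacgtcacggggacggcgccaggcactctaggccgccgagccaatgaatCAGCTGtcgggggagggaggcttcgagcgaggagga

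The E-protein genes held 75 of the 100 intervals and the Id genes 25. In the order control myogenin, bexarotene myogenin, control p300 and bexarotene p300, the windows of the 7 genes held 24, 18, 35 and 23 intervals, from lists of 5912, 6642, 22051 and 9154. The bexarotene p300 list is thus the shorter of the p300 lists genome-wide, which bears on every p300 call described as unique to control. Muscle differentiation genes, taken as a check of the labelled cells, had intervals at 10, 9, 9 and 10 of 12 genes in the same order. Genes of other cell types had them at 0, 0, 2 and 0 of 6, beside 32.3%, 32.9%, 53.8% and 35.2% of all protein-coding genes. Of the muscle genes, Ckm had no interval in any list and Mef2c had only 1, for bexarotene p300.

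At least 1 interval was found near 5, 6, 6 and 7 of the 7 genes in the same order of lists. Over all protein-coding genes the percentages were 32.3%, 32.9%, 53.8% and 35.2%. Intervals of every list lay near 5 genes (Tcf3, Tcf4, Tcf12, Id2 and Id3), against 14.7% of all protein-coding genes. The gene bodies differ in length, from 1.16 kb for Id1 to 343.8 kb for Tcf4, so a longer gene had more sequence in which an interval could fall. Intervals per 100 kb were 1.79, 1.34, 2.6 and 1.71 in the 7 windows. Over the combined windows of all protein-coding genes they were 0.313, 0.345, 1.05 and 0.432. For control myogenin the values by gene were uneven, at 9.67 for Tcf3, 3.91 for Id3, 1.63 for Tcf12 and 0.978 for Id2. They were 0.225 for Tcf4 and 0 for Id1 and Id4. The Tcf3 window gave 12 of the 24 control myogenin intervals, of which 10 lay downstream of the gene. The nearest coding TSS was that of Tcf3 for 2 of the 12.

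**Figure D1:**
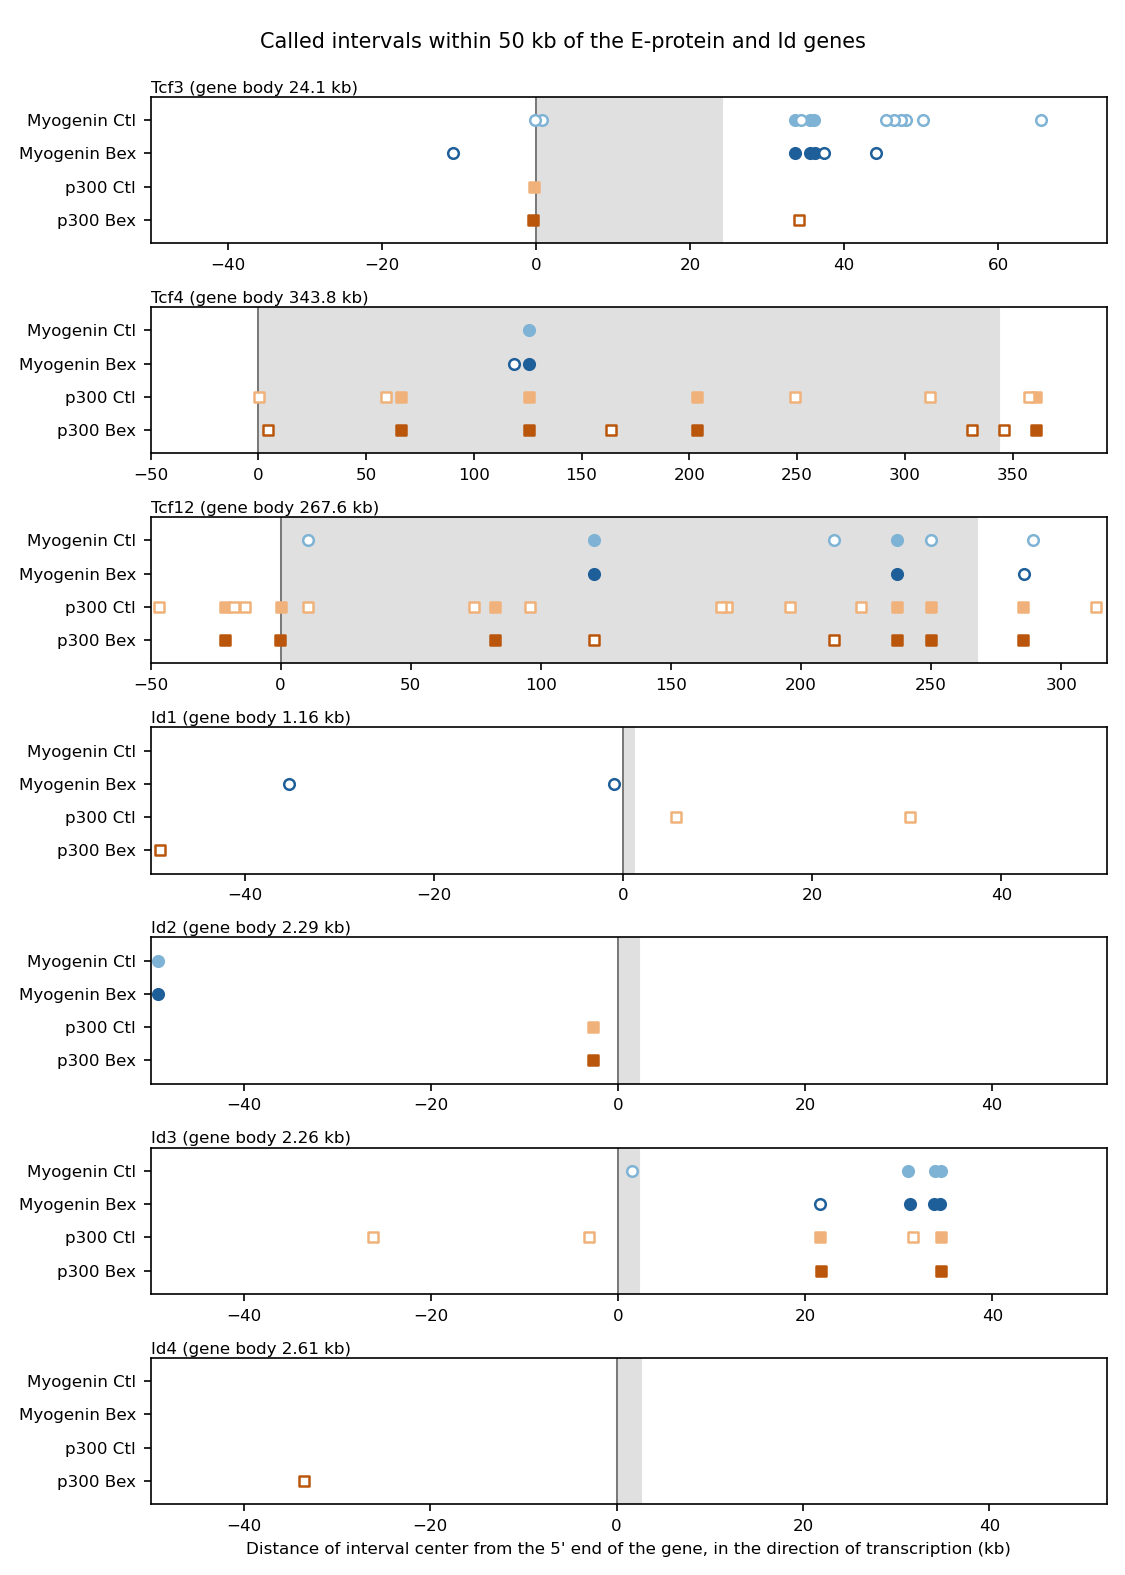
Positions of the called intervals, by list (rows), as the distance in kb of the interval center from the 5′ end of each gene in the direction of transcription; the gray band is the gene body, filled symbols overlap the other condition and open symbols do not. Of the 21 intervals near Tcf3, 16 lie beyond its 3′ end, whereas 16 of 20 near Tcf4 and 22 of 34 near Tcf12 lie in the gene body.

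**Figure D2:**
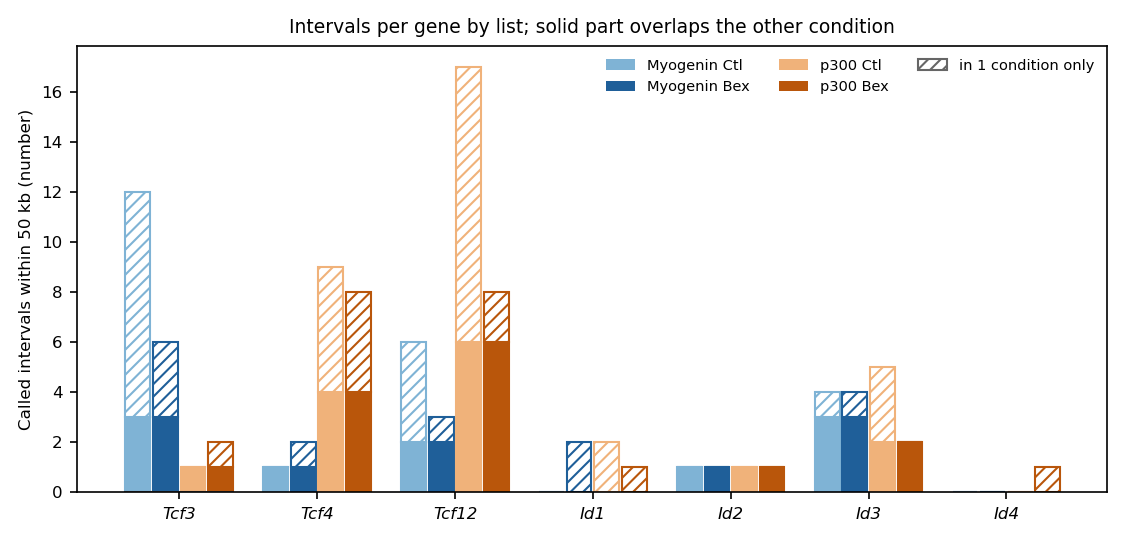
Number of called intervals within 50 kb of each gene, in each list; the solid part of a bar overlaps an interval of the same factor in the other condition and the hatched part does not. Among the 7 genes, Tcf3 has the most control myogenin intervals, 12, and Tcf12 the most control p300 intervals, 17. For 2 of the 12 Tcf3 intervals the nearest coding TSS is that of Tcf3.

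Tcf3 encodes the E-proteins E12 and E47 by alternative splicing and lies at chr10:79872259-79896392 on the minus strand. It had 12 control and 6 bexarotene myogenin intervals, with 1 and 2 p300 intervals. Only 1 of these 21 intervals lay in the gene body, a control myogenin interval in intron 1, 772 bp downstream of the TSS (chr10:79895405-79895783). Introns are counted along the longest coding transcript, and a distance is that from the center of an interval to the nearest annotated coding TSS of the gene.

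At the Tcf3 promoter a control myogenin interval was centered 162 bp upstream of the TSS (chr10:79896468-79896639). The control p300 interval was centered 237 bp upstream (chr10:79896501-79896756), and the control intervals of both factors shared 139 bp. The bexarotene p300 interval, 389 bp upstream (chr10:79896702-79896859), overlapped that of control p300 only in part, and not that of myogenin. No bexarotene myogenin interval was called there. The promoter locus thus had p300 calls in both conditions and a myogenin call in control, and the sequence printed above for the shared stretch has no E-box. The control myogenin interval (172 bp) and the bexarotene p300 interval (158 bp) have the smallest length of their lists. The nearest bexarotene myogenin interval to a Tcf3 TSS was the one 10.8 kb upstream, which was not called in control and is 300 bp long. Its 3 E-boxes are all CAGCTG and lie 43 and 48 bp apart.

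The other Tcf3 intervals were beyond the 3′ end of the gene, at or near the neighbors Mbd3, a subunit of the NuRD corepressor complex, and Mex3d, an RNA-binding protein, with 1 intergenic interval that has Plk5 as its nearest gene. This stretch held 10 of the 12 control and 5 of the 6 bexarotene myogenin intervals. There, 3 myogenin regions were shared between conditions, all within 2 kb of an Mbd3 TSS, at 1838, 1316 and 417 bp by the control centers. A further myogenin interval 225 bp from an Mbd3 TSS was unique to control and another at 572 bp was unique to bexarotene. At Mex3d, 5 control myogenin intervals lay from 1356 bp upstream to 1772 bp downstream of a TSS, and none of them was called with bexarotene, beside 49.4% of the whole control list unique to control. A myogenin interval unique to bexarotene lay 1888 bp upstream of a Mex3d TSS. A bexarotene p300 interval lay 37 bp from an Mbd3 TSS. For these intervals the window gives nearness to Tcf3 and not assignment to it, since the nearest TSS belongs to the neighbor. A count of 12 or more control myogenin intervals was found at 38 genes, of which 6 (Adamtsl5, Mbd3, Mex3d, Plk5, Tcf3 and Uqcr11) have windows that overlap that of Tcf3 and so count many of the same intervals.

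Tcf12 encodes the E-protein HEB and lies at chr9:71692059-71959626 on the minus strand, with 2 coding TSSs. It had 34 intervals, more than any other of the 7 genes, with 6 control and 3 bexarotene myogenin intervals and 17 control and 8 bexarotene p300 intervals. The nearest coding TSS is that of Tcf12 for 4, 1, 11 and 5 of these, in the same order, and for the rest it is annotated to another gene such as Cgnl1. Of the bexarotene p300 intervals, 3 were longer than the smallest of their list. Myogenin and p300 were both called at 6 of its 20 loci, a locus being a stretch of overlapping intervals of any list, beside 10.8% of all loci. At 5 of these both factors were called in the same condition.

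The Tcf12 locus in intron 13, 21.2 kb downstream of the internal TSS, was called in every list. Its intervals were 399 bp (control myogenin), 449 bp (bexarotene myogenin), 344 bp (control p300) and 340 bp (bexarotene p300) long. The centers of the 2 factors were 10 bp apart in control and 25 bp apart with bexarotene. The 4 E-boxes of the locus, of which 3 are CAGCTG and 1 is CAGGTG, follow each other at 22, 53 and 51 bp, and all lie in the stretch common to the lists. Among the 946 loci of the genome called in every list, 144 (15.2%) held at least 4 such sites and the median was 2.

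Both factors were also called at 5 further Tcf12 loci, each of which differed between conditions in at least 1 factor. Genome-wide, 946 of the 3259 loci with both factors were called in every list. In intron 5, 95.3 kb upstream of the internal TSS (chr9:71839049-71839310), myogenin was called in both conditions and p300 only with bexarotene, with centers 3 bp apart and 2 CAGCTG sites 30 bp apart. That p300 interval is 158 bp long, the smallest length in its list. In the intergenic stretch 69.7 kb downstream (chr9:71674028-71674369), p300 was called in both conditions and myogenin only with bexarotene. In intron 16 (chr9:71709323-71709826), p300 was called in both conditions and myogenin only in control, with centers 183 bp apart. In intron 3 (chr9:71948796-71949575) both factors were called only in control, with the myogenin interval at the smallest length of its list. The p300 interval of 780 bp is the longest near any of the genes, and it has a GC content of 36% and no E-box. In intron 8, 2.96 kb upstream of the internal TSS (chr9:71746768-71746939), myogenin was called only in control and p300 only with bexarotene, over a single CAGCTG. Both of these intervals, of 172 and 158 bp, have the smallest length of their lists.

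At the upstream Tcf12 TSS p300 was called in both conditions, with centers 50 bp (control) and 138 bp (bexarotene) upstream, and myogenin in neither. Of the 17 control p300 intervals of Tcf12, 11 were unique to control, beside 67.3% of the whole list. These included 6 intervals in introns 3, 6 and 8 that overlapped no other list. The genes whose counts in the lists were nearest to those of Tcf12, by the distance of log2(count + 1), were Wisp1 (6, 4, 16 and 10 intervals; distance 0.441), Asap1 (5, 4, 19 and 7; 0.453) and Ndrg1 (6, 4, 13 and 8; 0.485). Wisp1 and Ndrg1 are neighbors, so their windows count many of the same intervals.

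Tcf4 encodes the E-protein also named ITF2, and is not the Wnt effector Tcf7l2. It lies at chr18:69503800-69847621 on the plus strand. It had 9 control and 8 bexarotene p300 intervals and 1 control and 2 bexarotene myogenin intervals, from p300 lists that are also the longer ones genome-wide. Control p300 was called at 2 of its TSSs, at centers 46 and 60 bp upstream, and no bexarotene p300 interval lay at either. Both control intervals are 159 bp long, the smallest length in their list. The bexarotene p300 interval closest to a Tcf4 TSS was 2.37 kb downstream, in intron 2, also at the smallest length of its list. The intron 5 locus, 123.4 kb downstream of a TSS (chr18:69628931-69629629), was called in every list and holds 4 E-boxes over its 699 bp. None of them lies in the 172 bp that all lists have in common there, which is the control myogenin interval. It was the only Tcf4 locus with both factors. The second bexarotene myogenin interval lay in intron 4, 116.6 kb downstream of the same TSS, and was unique to bexarotene, with CACCTG and CAGCTG sites 93 bp apart. Of 13 p300 regions near Tcf4, 5 were unique to control, 4 were shared and 4 were unique to bexarotene, beside 62.1%, 30.1% and 7.76% of all p300 regions.

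**Figure D3:**
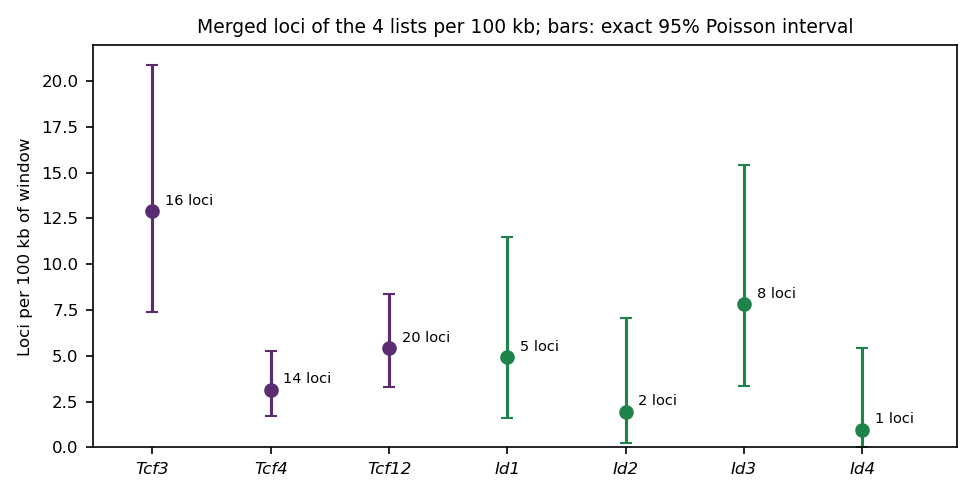
Loci (overlapping intervals of any list merged) per 100 kb of window for each gene, with exact 95% Poisson intervals that cover counting error only; purple, E-protein genes; green, Id genes. The values are 12.9 for Tcf3, 3.15 for Tcf4, 5.44 for Tcf12, 4.94 for Id1, 1.96 for Id2, 7.82 for Id3 and 0.975 for Id4, so the families overlap, and most Tcf3 loci lie nearest to a TSS of a neighbor.

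The Id gene bodies are short, at 1.16 to 2.61 kb, and 1 of the 25 Id intervals lay in one. Id1 lies at chr2:152561987-152563146. Its window held no control myogenin interval, and the nearest one was 60.6 kb from the TSS. With bexarotene, myogenin was called 969 bp upstream of the Id1 TSS over a CAGCTG, and 35.3 kb upstream in an intron of H13, which encodes signal peptide peptidase, over a CACCTG. p300 was called in control at 5.61 and 30.3 kb downstream, the latter over 2 CAGCTG sites 35 bp apart toward Cox4i2, and with bexarotene at the TSS of Mcts2, 49 kb upstream. All 5 Id1 loci were called in a single list, beside 66.3% of all loci. The bexarotene myogenin interval 969 bp upstream of Id1 is 168 bp long, the smallest length in its list.

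Id2 lies at chr12:25778666-25780957 and had 1 interval in each list. p300 was called in both conditions 2.7 kb upstream (chr12:25783552-25783754), over a CAGGTG that both intervals hold. The control interval also holds a CAGCTG, 43 bp away. Myogenin was called in both conditions 49.2 kb upstream (chr12:25829978-25830250), over a CACCTG. Neither the myogenin nor the p300 locus of Id2 differed in call between the conditions. The myogenin intervals lay 49 and 49.1 kb from the gene body, close to the limit of the window.

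Id3 lies at chr4:135699412-135701670 and had 4 myogenin intervals in each condition, with 5 control and 2 bexarotene p300 intervals. Most of them, 12 of 15, were downstream of the gene. The locus 34.5 kb downstream, in an intron of E2f2, a cell cycle transcription factor, was called in every list. It is 671 bp long and holds 5 E-boxes, of which 4 are CAGCTG. The centers of the 2 factors were 16 bp apart in control and 46 bp apart with bexarotene. The adjoining E2f2 loci 31.1 and 33.8 kb downstream were called for myogenin in both conditions, and no p300 interval overlapped them. A control p300 interval (chr4:135730832-135731089) began just past the end of the locus at 31.1 kb (chr4:135730138-135730785). The locus at 31.1 kb holds 4 E-boxes, of which 3 lie in the control interval and 4 in the bexarotene interval, and the one at 33.8 kb holds 2 in both. At 21.6 kb downstream p300 was called in both conditions and myogenin only with bexarotene, over a single CAGCTG, with centers 9 bp apart. That myogenin interval is 168 bp long, the smallest length in its list. A control myogenin interval in the 3′ UTR of Id3, 1443 bp downstream of the TSS, was unique to control, as were p300 intervals 26.3 and 3.08 kb upstream and 31.5 kb downstream. The 3′ UTR interval and the p300 interval 26.3 kb upstream have the smallest length of their lists. For the loci from 21.6 kb downstream onward, the nearest coding TSS is that of E2f2.

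Id4 lies at chr13:48356796-48359405. Its only interval was a bexarotene p300 interval 33.5 kb upstream, at the smallest length of that list, with a GC content of 71.5% and a CAGCTG. The nearest control myogenin, bexarotene myogenin and control p300 intervals were 282.3, 759.0 and 230.4 kb from its TSS.

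The intervals of a factor were merged between conditions into regions. Near the 7 genes, 14 of 32 myogenin regions were unique to control (43.8%, 95% Wilson interval 28.2 to 60.7%), against 30.6% of all myogenin regions. Shared regions numbered 10 (31.2%, 18 to 48.6%), against 31.3%, and regions unique to bexarotene 8 (25%, 13.3 to 42.1%), against 38.2%. In each class the genome-wide share lay within the interval of the smaller set. Tcf3 alone gave 9 of the 14 control regions, 7 of which lie beyond its 3′ end.

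Of 44 p300 regions, 21 were unique to control (47.7%, 33.8 to 62.1%), against 62.1% of all p300 regions, at the upper end of that interval, and 14 were shared (31.8%, 20 to 46.6%), against 30.1%. The 9 p300 regions unique to bexarotene were 20.5% of the regions (11.2 to 34.5%), against 7.76% genome-wide, which lies below that interval. They were 4 at Tcf4, 2 at Tcf12 and 1 each at Tcf3, Id1 and Id4. Of these 9 intervals, 7 were at the smallest length of the list, 158 bp, beside 80.5% of all p300 intervals unique to bexarotene. The Wilson intervals cover counting error only, and regions of 1 gene or window are not independent. When an overlap had to cover 50% of each interval, 39.1% of bexarotene p300 intervals near the 7 genes were shared, in place of 60.9%. The genome-wide share under that rule was not counted.

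**Figure D4:**
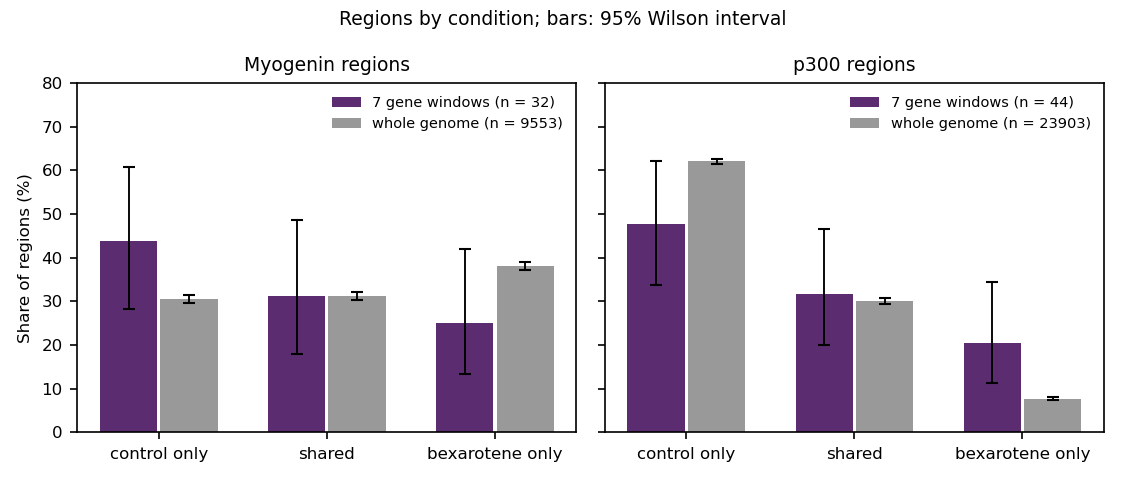
Share (%) of myogenin regions (left) and p300 regions (right) that were unique to control, shared or unique to bexarotene, in the windows of the 7 genes (purple) and genome-wide (gray), with 95% Wilson intervals for counting error. The p300 regions unique to bexarotene were 20.5% in the windows and 7.76% genome-wide.

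When the lists were joined, the windows held 66 loci. Of these, 43 (65.2%) were called in a single list, against 66.3% of 30106 loci genome-wide. Loci called in every list were 3 of 66, at Tcf4, Tcf12 and Id3, against 3.14% of all loci. Both factors were called at 10 loci (15.2%, Wilson interval 8.44 to 25.7%), against 10.8% of all loci. The 10 loci were 6 at Tcf12, 2 at Id3 and 1 each at Tcf3 and Tcf4, and none was near Id1, Id2 or Id4. The other factor of the same condition overlapped 25% of control myogenin, 33.3% of bexarotene myogenin, 17.1% of control p300 and 26.1% of bexarotene p300 intervals, against 33%, 25.6%, 8.79% and 18.5% of the whole lists. When an overlap had to cover 50% of each interval, the control shares fell to 12.5% for myogenin and 8.57% for p300. Among intervals longer than the smallest of their list, the shares were 23.1%, 40%, 11.1% and 40% in the same order of lists. Where both factors were called in 1 condition, their centers were 3 to 183 bp apart.

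An interval center within 1 kb of a coding TSS of any gene was found for 6 of 24 control myogenin intervals (25%), 3 of 18 bexarotene myogenin intervals (16.7%), 4 of 35 control p300 intervals (11.4%) and 4 of 23 bexarotene p300 intervals (17.4%). The shares over the whole lists were 24.2%, 12.5%, 11% and 12.4%, each within the Wilson interval of the smaller set. Both bexarotene shares were 0% among intervals longer than the smallest of their list, and a limit of 2 kb raised the control myogenin share to 50%. Of the genes examined, only Tcf3 and Id1 had a myogenin interval within 1 kb of their own TSS, Tcf3 in control and Id1 with bexarotene. For p300 these were Tcf3 and Tcf12 in both conditions and Tcf4 in control. The share of all protein-coding genes with such an interval at their own TSS was not counted.

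E-boxes were counted within 50 bp of the interval centers when the whole site lay in that stretch. They were present at 7 of 24 control myogenin intervals (29.2%, 14.9 to 49.2%) and at 10 of 18 bexarotene myogenin intervals (55.6%, 33.7 to 75.4%). The whole lists gave 47.7% and 60.3%. For p300 the shares were 20% of the control intervals and 30.4% of the bexarotene intervals, against 19.6% and 25.2%. Over the whole interval, 16 of 24 control (66.7%) and 14 of 18 bexarotene myogenin intervals (77.8%) held a site, against 65.2% and 77.2% over the lists. At least 2 sites were held by 9 of 35 control p300 intervals (25.7%, 14.2 to 42.1%), against 11.5% of that list, a share below the interval. These intervals had a median length of 270.0 bp, against 230 bp for the list. For control myogenin, bexarotene myogenin and bexarotene p300 the shares were 29.2%, 44.4% and 17.4%, against 33.2%, 41.1% and 13.4%. In intervals with a site, the median distance of the closest site from the center was 50.5 bp for control myogenin and 19 bp for bexarotene myogenin, against 27 and 23 bp over the lists.

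By class, 9 of 10 shared control myogenin intervals held an E-box anywhere in the interval, and 7 of 14 unique to control did. In the whole list these shares were 87.6% and 42.2%. Of the bexarotene myogenin intervals, 8 of 10 shared and 6 of 8 unique ones held one, against 89.3% and 67.3%. The number of lists at a locus went with the same measure, since 19 of 43 loci in 1 list held an E-box (44.2%), 9 of 15 in 2 lists, 4 of 5 in 3 lists and each of the 3 in every list. Genome-wide these shares were 33.9%, 54.4%, 85.9% and 95.1%. Loci in more lists were also longer, with a median of 206.0 bp for those in 1 list and 671.0 bp for those in every list, and the part of length in this count was not tested. Per kb, loci in 1, 2 and 3 lists held 2.6, 2.81 and 3.02 sites and the 3 loci in every list 7.04, against 2.13, 2.56, 3.76 and 4.34 genome-wide.

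**Figure D5:**
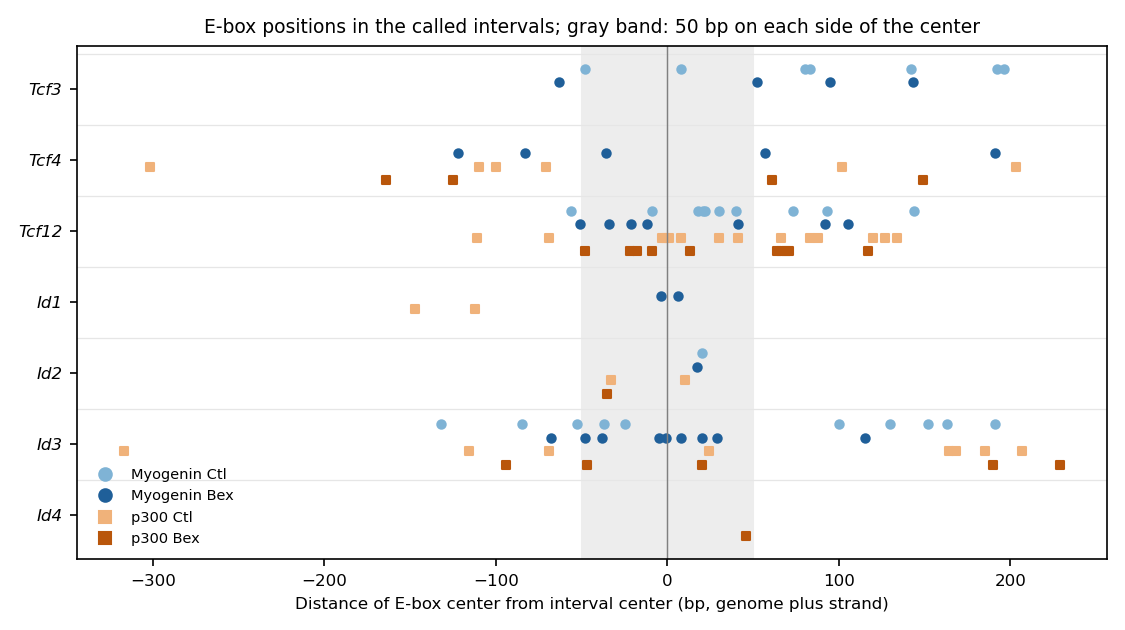
Distance in bp from the interval center to the center of each E-box in the called intervals, along the plus strand, by gene (rows) and list (symbols); the gray band covers 50 bp on each side. Sites near Tcf12 and Id3 make up most of those in the band, and Tcf3 has 2 control myogenin sites with their centers there, 1 of which crosses the edge and is not counted in the shares.

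The 66 loci held 61 E-boxes, of which 39 were CAGCTG (63.9%, 51.4 to 74.8%), against 71.1% over all loci. Sites were found at 3.12 per kb, against 2.53. By gene there were 19 at Tcf12, 15 at Id3, 10 at Tcf3, 9 at Tcf4, 4 at Id1, 3 at Id2 and 1 at Id4. Other consensus sequences were counted within 100 bp of the center on both strands. For TGACTCA or TGAGTCA, bound by AP-1, the shares of intervals were 12.5%, 11.1%, 25.7% and 17.4% in the usual order of lists, against 10.4%, 12.6%, 27.8% and 27.1%. For TGTGGT, bound by Runx factors, they were 8.33%, 27.8%, 28.6% and 17.4%, against 25.6%, 29.6%, 31.1% and 32.7%. For GGAATG, bound by Tead factors, they were 16.7%, 11.1%, 20% and 34.8%, against 16.7%, 19.1%, 18.7% and 18.9%. A match is a run of letters and not a measured site.

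The windows from 250 bp before to 50 bp after each coding TSS held an E-box at 3 of 9 TSSs of Tcf3, 0 of 7 of Tcf4, 1 of 2 of Tcf12 and the single TSS of Id2, and at none of the single TSSs of Id1, Id3 and Id4. Of all such windows 33.1% held one.

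Genes of the same network were set beside these, in lists that were also chosen with earlier results of these data known. Of 22 other bHLH partners and E-box repressors, 14, 13, 17 and 15 had an interval within 50 kb in the 4 lists, beside 32.3%, 32.9%, 53.8% and 35.2% of all protein-coding genes. Intervals of every list were found at 11 of the 22, beside 14.7% of all genes. These were the myogenic factors Myod1 (4, 3, 5 and 3 intervals) and Myog (4, 4, 1 and 2), the bHLH factors Tcf15 (1, 2, 2 and 1), Scx (7, 4, 5 and 2) and Lyl1 (2, 3, 5 and 3), the zinc finger repressors Snai1 (4, 4, 6 and 4), Zeb1 (4, 4, 8 and 4) and Zeb2 (3, 1, 12 and 3), the Notch targets Hes1 (1, 1, 7 and 5) and Heyl (2, 2, 3 and 4), and the Myc antagonist Mxi1 (3, 1, 3 and 2). A further 4 genes, Myf5, Myf6, Twist1 and Tcf21, had none. Of 16 BMP and Smad genes, which act upstream of the Id genes, 8, 7, 10 and 9 had an interval, beside the same percentages of all genes. Intervals of every list were found at 3 of the 16, beside 14.7%. These were the receptor Bmpr1a (1, 1, 6 and 3) and the inhibitory Smads Smad6 (1, 1, 3 and 1) and Smad7 (2, 1, 6 and 1). The ligands Bmp2 and Bmp7 and the antagonist Nog had none.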

How the data were processed

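Myogenin and p300 ChIP-seq of C2C12 cells with 1 library per condition gave 4 lists. The authors used BWA-MEM to align the reads of myogenin and Bowtie for those of p300, both to mm9, removed duplicates with Picard and called peaks per library with HOMER in the factor style. The lists deposited by the authors give chromosome, start and end only, with starts counted from 0, and positions are printed counted from 1. Input chromatin and H3K27me3 were not used here. The lists give no tag totals per library, so the precision of a call is not known from them.

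Intervals within 50 kb of the gene bodies of GENCODE vM1, which takes the place of the RefSeq catalog of the study, were counted. An overlap of at least 1 bp made intervals shared, and centers within 1 kb of one of 46006 coding TSSs were called near a TSS. The sequences and E-boxes came from mm9 on both strands. Shares carry 95% Wilson intervals and counts exact Poisson intervals, both for counting error only. No replicate check and no p-value could be had from single libraries. Members and gene lists were chosen with earlier results of these data known. The genes named are the 7 members, neighbors with the nearest TSS, list genes with intervals in every list (the genes with none were added after their values were seen) and the 3 genes with counts nearest to those of Tcf12. The counting functions were tested on simulated data in 8 steps of 400 items, and each step recovered the known answer. Python 3.11.15, numpy 2.4.6, scipy 1.17.1, pandas 2.3.3, pysam 0.24.0 and matplotlib 3.10.9 were used. Alternatives changed the window, the overlap rule, the TSS distance and catalog, the E-box rule and the restriction to intervals longer than the smallest of their list.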

Additional observations from a re-analysis of the deposited data

How the results depend on the processing

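No paired analysis was possible because each condition had 1 library per factor so that the conditions share a single replicate number, and no replicate could be left out. Of the shares and counts over all 7 genes, 49 alternative values stayed within the 95% Wilson interval of the reported share or within 1.5 times the reported count, and 15 moved beyond that. Counting an E-box over the whole interval in place of 50 bp gave 66.7% (control myogenin), 77.8% (bexarotene myogenin), 45.7% (control p300) and 52.2% (bexarotene p300). Any CANNTG within 50 bp gave 48.6% for control p300 and 60.9% for bexarotene p300. Intervals longer than the smallest of their list numbered 13 for control myogenin, 10 for bexarotene myogenin and 10 for bexarotene p300. Of those for bexarotene, 0% of the myogenin and 0% of the p300 intervals lay within 1 kb of a TSS. Only intervals whose nearest coding TSS is that of the gene left 9 control and 6 bexarotene myogenin intervals. A reciprocal overlap of 50% left 39.1% of bexarotene p300 intervals shared between conditions, in place of 60.9%. A limit of 2 kb put 50% of control myogenin intervals near a TSS, in place of 25%. Within these wide limits, windows of 25 kb and 100 kb gave 18 and 33 intervals for control myogenin, 13 and 25 for bexarotene myogenin, 29 and 50 for control p300 and 20 and 26 for bexarotene p300. Of the counts for single genes, 45 of the alternative values moved and 67 did not. Only intervals whose nearest TSS is that of the gene left 2 of 12 control and 1 of 6 bexarotene myogenin intervals for Tcf3, and 1 of 4 and 0 of 4 for Id3. For Id1, a window of 100 kb gave 4 control and 6 bexarotene myogenin intervals in place of 0 and 2. It gave 5 control p300 intervals in place of 2, and 1 bexarotene p300 interval as before. For Id2 a window of 25 kb gave 0 myogenin intervals in either condition. The reciprocal overlap left 25.7% of control p300 intervals shared in place of 40%. It put the other factor at 12.5% of control myogenin intervals (from 25%) and 8.57% of control p300 intervals (from 17.1%). The restriction to longer intervals put the other factor at 11.1% of control p300 (from 17.1%) and 40% of bexarotene p300 intervals (from 26.1%). It left 25.9% of control p300 intervals shared (from 40%) and 7.41% within 1 kb of a TSS (from 11.4%). Further, 33.3% of bexarotene myogenin intervals lay within 2 kb of a TSS, in place of 16.7% within 1 kb. The 8 values of the 2 other gene lists under a window of 25 kb stayed within 1.5 times. The causes were not tested beyond the fewer intervals or wider search that an alternative brings. The call threshold is fixed in the lists, so a call absent in 1 condition may lie just under it. The depth behind each call is not known from the lists.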
